A study of Mus musculus with 2 samples.

Results

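The Ly6 genes described here are Ly6a, Ly6c1, Ly6c2, Ly6d, Ly6e and Ly6i, 6 of the 28692 genes in the count matrices, selected by symbol. They were measured by droplet single-cell RNA sequencing in wild-type (wt) C57BL/6 mice (adult, per the sample titles) kept on chow, labelled as the control, or on a ketogenic diet for 1 week. Each diet had 1 library of CD45+ leukocytes resident in adipose tissue (visceral fat, per the series title), from which cells labelled through the blood had been set apart. The labels used here give no further age, no sex and no number of mice per library, so no difference below has a replicate check and no test was possible. Unique molecular identifiers (UMIs, which count captured transcript molecules) were summed over the cells of each deposited cluster and library. Sums are given as CPM, the UMIs of a gene as a share of all UMIs of those cells, on a scale common to all sums. Intervals are exact 95% intervals that cover counting error only. The 6 genes were proposed with these sums in view, and the clusters had been made from these cells, so the levels and ratios are descriptions.

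Ly6 proteins are small molecules with a compact disulphide-bonded fold, tethered to the outer face of the cell membrane by a glycosylphosphatidylinositol (GPI) anchor. Several are used as surface markers of blood cells. Ly6a encodes Sca-1, a marker of haematopoietic stem cells and of activated lymphocytes. Ly6c1 and Ly6c2 together give the Ly6C antigen, by which inflammatory monocytes are sorted and which memory T cells, natural killer (NK) cells and plasmacytoid dendritic cells also carry. Ly6d marks lymphoid progenitors committed to the B lineage, Ly6e is broadly expressed and limits the entry of several viruses, and Ly6i is a less studied member of the Ly6a and Ly6c group. Transcription of Ly6a, Ly6c and Ly6e is raised by interferons in many cells.

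The chow library held 4545 cells and 21570910 UMIs, and the ketogenic library 5614 cells and 26041785 UMIs, with medians of 3469 and 3461.5 UMIs per cell. Clusters 0 to 12 held 4458 and 5559 of these cells. Their names here rest on fixed markers and end in "-like", and clusters 4 and 8 stayed unnamed. Cluster 3 (macrophage-like) held 859 cells on chow and 145 on the ketogenic diet, cluster 2 (T-like) 236 and 821, and cluster 9 (B and plasma-like) 82 and 245. Of all cells, 82.6% on chow and 82.3% on the ketogenic diet had a UMI of Ptprc, which encodes CD45. The 2 libraries shared 41 cell barcodes, of which 3 fell in the same cluster in both. The members together took 97850 UMIs, 0.207% of all UMIs in clusters.

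All 6 genes lie on mouse chromosome 15 in the GENCODE M21 annotation of GRCm38, and all are protein coding. Ly6d is at chr15:74762056-74763620 on the minus strand. Ly6e follows at chr15:74955051-74959905 and is the only member on the plus strand. Ly6i (chr15:74979534-74983430), Ly6a (chr15:74994877-74998031), Ly6c1 (chr15:75044018-75048830) and Ly6c2 (chr15:75108158-75111970) follow on the minus strand. Between the start of Ly6e and the end of Ly6c2, a span of 156.92 kb, these 5 members are the only protein-coding genes. Ly6c1 and Ly6c2 are close copies: of the 773 windows of 50 bases in the annotated Ly6c2 transcript, 252 (32.6%) also occur in Ly6c1, and 25.1% of the windows in the last 400 bases do. Reads of these 2 genes could therefore be split or lost by the counting, and their values are uncertain to that extent. Ly6d and Ly6e share no such window with another member.

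Ly6c1 and Ly6c2 had very different levels across the clusters, so the bases before their starts are shown. RefSeq entries on GRCm38.p6 were at hand for these 2 of the 6 genes, and for each the entry reaching farthest upstream is printed from its first base to the last base before the transcript start. Both are 250 bases on the minus strand, and capitals mark stretches of at least 12 bases that occur in both.
Ly6c1, chr15:75048838-75049087: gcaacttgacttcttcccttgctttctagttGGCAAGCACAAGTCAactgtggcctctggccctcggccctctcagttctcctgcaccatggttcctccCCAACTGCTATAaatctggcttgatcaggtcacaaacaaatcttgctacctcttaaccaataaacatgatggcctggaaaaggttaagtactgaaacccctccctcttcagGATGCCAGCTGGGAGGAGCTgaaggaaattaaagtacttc
Ly6c2, chr15:75111972-75112221: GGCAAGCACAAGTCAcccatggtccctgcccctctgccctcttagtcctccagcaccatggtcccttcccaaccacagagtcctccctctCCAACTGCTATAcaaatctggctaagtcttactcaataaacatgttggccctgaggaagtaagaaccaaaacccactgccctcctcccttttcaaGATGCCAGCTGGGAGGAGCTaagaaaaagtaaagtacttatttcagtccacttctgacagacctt
The capitals cover 47 bases (18.8%) of each window, and the longest shared stretch has 20 bases. A search of the full RefSeq windows, 300 bases each, for the gamma-activated site TTCNNNGAA and for the core of the interferon-stimulated response element, GAAANNGAA, on both strands gave 0 matches in the 4 entries of the 2 genes. Among all 32851 promoter entries of that length, 8.30% held the first motif and 8.56% the second. The result says only that these letters are not in these windows.

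Ly6e was the member with the widest range of clusters. Its highest level was in cluster 11 (γδ T-like), at 2344 CPM on chow and 2449 CPM on the ketogenic diet, followed by cluster 0 (group 2 innate lymphoid cell, ILC2-like) at 1914 and 2244 CPM and cluster 7 (regulatory T cell, Treg-like) at 1315 and 1596 CPM. These 3 had the same order in both libraries, with counting intervals that did not overlap between neighbours. Clusters 1 (NK-like), 4, 2 and 9 lay between 880 and 972 CPM on chow, where neighbours in the order overlapped. The lowest levels were in cluster 8, whose leading genes are Retnla, Fcrls and Lyz1, at 129 and 123 CPM, and cluster 12 (mature dendritic cell-like) at 116 and 194 CPM. After thinning every cell to 1000 UMIs, 89.8% of cluster 11 cells on chow and 89.4% on the ketogenic diet had a Ly6e UMI, against 8.33% and 12.2% in cluster 12. Before thinning, the shares were 100% in both libraries of cluster 11 and 36.7% and 53.1% in cluster 12, at median depths of 3052, 3703, 6306 and 6808 UMIs per cell.

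The highest Ly6a levels were in 4 lymphoid clusters. Cluster 9 had 874 CPM on chow and 694 CPM on the ketogenic diet. Cluster 0 had 758 and 913 CPM, so the order of these 2 clusters was opposite in the 2 libraries. Cluster 0 held 51.9% of all Ly6a UMIs of clustered chow cells and 48.2% of those of ketogenic cells. Clusters 7 (418 and 493 CPM) and 2 (359 and 461 CPM) came next and overlapped each other in both libraries. In every other cluster but 11 and 10, Ly6a stayed at or below 113 CPM, the lymphoid clusters 1 and 4 included. Within cluster 5, cells with at least 3 UMIs of plasmacytoid genes had 525 CPM on 50 UMIs on chow, of which 1 cell held 50%, and 416 CPM on 76 UMIs on the ketogenic diet. After thinning, 47.3% of ILC2-like cells on chow and 55.0% on the ketogenic diet had a Ly6a UMI, and 2.90% and 3.95% of NK-like cells did. Without thinning, the shares were 76.1% and 86.4% in ILC2-like cells and 6.77% and 11.6% in NK-like cells, at medians of 2610.5, 3133, 2296.5 and 3147 UMIs per cell.

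**Figure D1:**
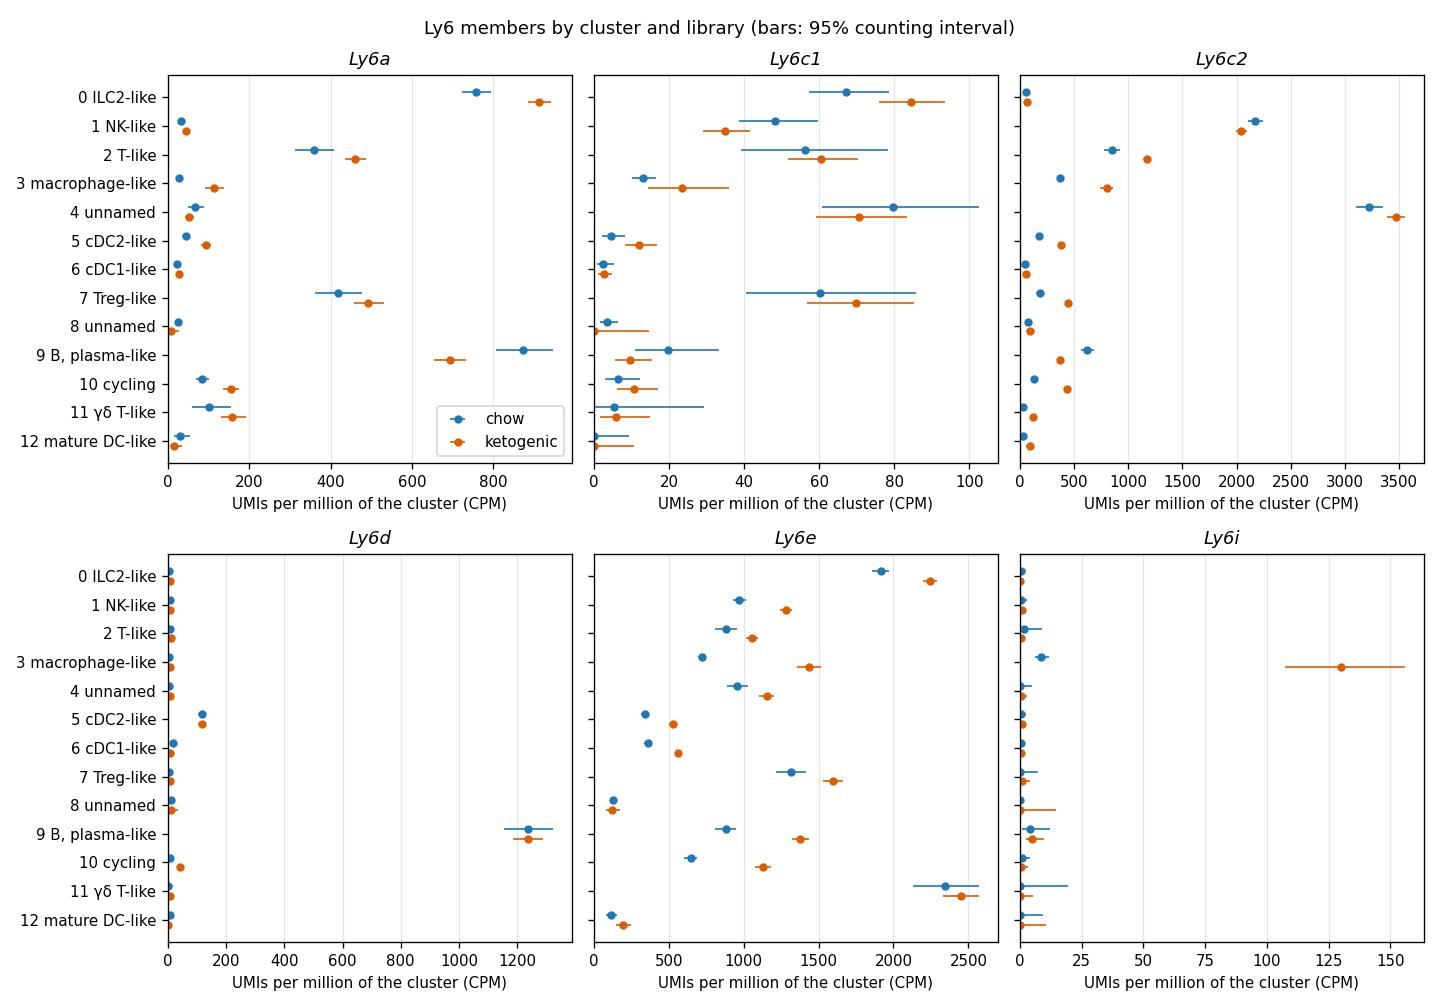
Level of each Ly6 gene (panels) in clusters 0 to 12 (rows). Points are CPM in the chow (blue) and ketogenic (orange) library, and bars are 95% counting intervals. Ly6c2 peaks in cluster 4 (3225 and 3467 CPM), Ly6e in cluster 11, Ly6d in cluster 9 (1237 and 1236 CPM) and Ly6i in cluster 3. The panels have separate scales.

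Ly6c2 had its highest level in cluster 4, at 3225 CPM on chow and 3467 CPM on the ketogenic diet. The leading genes of cluster 4 are those of Ly49 receptors and of CD3, and Ly6c2 is itself among its 10 leading genes. Cluster 1 (NK-like) followed at 2172 and 2046 CPM, and cluster 2 (T-like) at 848 and 1173 CPM. On chow cluster 9 was next (622 CPM) and then cluster 3 (366 CPM), whereas on the ketogenic diet cluster 3 was next (801 CPM) and cluster 9 had 374 CPM. In cluster 9, 1 cell held 20.3% of the chow UMIs of Ly6c2 and 1 held 18.3% of the ketogenic UMIs. Cells with both lymphoid and myeloid marker UMIs, described below as possible doublets, were 42 of its 82 chow cells and 15 of its 245 ketogenic cells. The order of levels without them was not computed. Clusters 1 and 4 together held most Ly6c2 UMIs, 37.9% and 23.6% of the chow total and 33.8% and 30.9% of the ketogenic total. Within cluster 1 the gene was uneven among cells: on chow, 224 of 724 cells had no Ly6c2 UMI and 166 had at least 10. Cells of cluster 1 with a UMI of Eomes or of the receptor genes Klra4, Klra8 or Klra9 had 1904 CPM on chow and 1819 CPM on the ketogenic diet. The other cells of cluster 1 had 2672 and 2722 CPM. After thinning, the share of cells with a Ly6c2 UMI was 90.7% and 90.9% in cluster 4, 60.8% and 56.2% in cluster 1 and 3.33% and 6.12% in cluster 12. The unthinned shares were 97.0% and 96.5% in cluster 4, 69.1% and 67.0% in cluster 1 and 20% and 30.6% in cluster 12, at medians of 6306 and 6808 UMIs per cell in cluster 12 and 2475 and 3388 in cluster 4.

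Cluster 2 held both CD8 and CD4 T cells, and Ly6c2 and Ly6a were distributed differently between them. Cells with a UMI of Cd8a or Cd8b1 and none of Cd4 had 1610 CPM of Ly6c2 on chow (46 cells) and 1910 CPM on the ketogenic diet (206 cells). Cells with a UMI of Cd4 and none of the CD8 genes had 461 CPM (56 cells) and 520 CPM (212 cells). Ly6a ran the other way, with 170 and 298 CPM in the CD8 cells and 425 and 625 CPM in the CD4 cells. In each library the intervals of the CD8 and CD4 cells did not overlap for either gene.

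Ly6c1, the near copy of Ly6c2, had similar levels in 5 of the lymphoid clusters and was low in clusters 9 and 11. Its levels on chow and the ketogenic diet were 79.6 and 70.6 CPM in cluster 4, 67.3 and 84.4 CPM in cluster 0, 60.2 and 69.99 CPM in cluster 7, 56.3 and 60.6 CPM in cluster 2 and 48.4 and 35.05 CPM in cluster 1. These 5 clusters overlapped with their neighbours in the chow order, and on the ketogenic diet cluster 1 lay apart below the other 4. In cluster 9 Ly6c1 had 19.8 and 9.68 CPM and in cluster 11 5.27 and 5.86 CPM. The share of Ly6c1 in the UMIs of both genes therefore differed widely between clusters. In ILC2-like cells it was 54.8% (interval 48.9% to 60.6%) on chow and 55.4% (51.5% to 59.2%) on the ketogenic diet. In NK-like cells it was 2.18% and 1.68%, and in cluster 4 it was 2.41% and 1.996%. Cluster 7 lay between, at 24.6% (17.2% to 33.2%) on chow and 13.5% (11.1% to 16.2%) on the ketogenic diet. Whether reads of Ly6c2 were counted as Ly6c1 was not tested. With 10% free RNA subtracted, a Ly6c2 sum of cluster 0 fell under 3 counts, and the share was not recomputed.

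**Figure D2:**
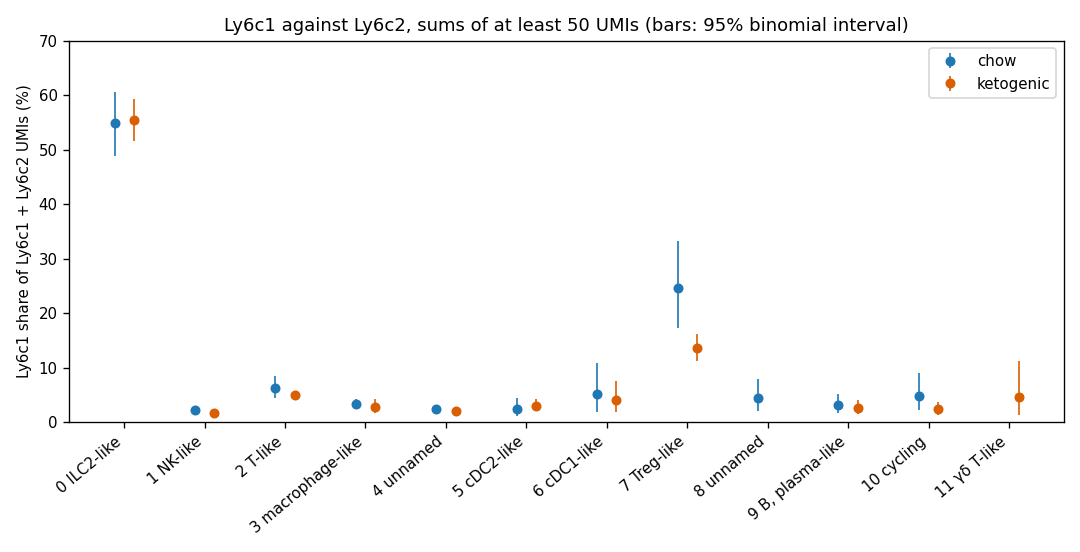
Share of Ly6c1 in the summed Ly6c1 and Ly6c2 UMIs (vertical axis, percent) by cluster, for sums of at least 50 UMIs, in the chow (blue) and ketogenic (orange) library, with 95% binomial intervals. Cluster 0 is near 55% in both libraries, cluster 7 is at 24.6% and 13.5%, and the other clusters are at 6.23% or below.

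Ly6d was concentrated in B-lineage and plasmacytoid cells. Cluster 9 held 68.5% of its UMIs in clustered chow cells and 80.2% in ketogenic cells, at 1237 and 1236 CPM. Cluster 5 (type 2 conventional dendritic cell, cDC2-like) held 20.1% and 11.9%, at 116 and 117 CPM. The Ly6d UMIs of cluster 5 came from few cells: 21 chow cells with at least 3 UMIs of the plasmacytoid genes Siglech, Ccr9, Cox6a2, Klk1 and Pacsin1 held 247 of its 256 UMIs, and 30 such ketogenic cells held 304 of 323. Those cells had 2594 and 1662 CPM of Ly6d, whereas the other cells of cluster 5 had 4.26 and 7.36 CPM. In the remaining clusters Ly6d was at most 42.7 CPM. After thinning, 68.3% of cluster 9 cells on chow and 67.3% on the ketogenic diet had a Ly6d UMI (93.9% and 89.4% before thinning), and 0.468% and 0.611% of ILC2-like cells did (1.52% and 2.14% before thinning).

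Ly6i was nearly limited to cluster 3, which held 44 of 53 chow UMIs (83.0%) and 116 of 135 ketogenic UMIs (85.9%). Elsewhere Ly6i had at most 9 UMIs in any cluster and library (5.12 CPM in cluster 9). In 9 of those sums it had 0 UMIs, and the limit that a count of 0 allows (3 counts) was as high as 15.8 CPM in the small chow cluster 11. Cluster 3 is macrophage-like by its leading genes and also has 6 of 7 monocyte markers raised. On chow, 97.7% of the Ly6i UMIs of cluster 3 were in cells with under 5 UMIs of the complement genes C1qa, C1qb and C1qc, and on the ketogenic diet 84.5% were. Such cells were 584 of 859 on chow and 118 of 145 on the ketogenic diet. There Ly6i had 140.1 CPM (interval 113.7 to 170.7) in them on the ketogenic diet. The other ketogenic cells of cluster 3 had 92.99 CPM (55.1 to 147), and the intervals overlapped. Those other cells had 1 Ly6i UMI on chow and 18 on the ketogenic diet, of which 1 cell held 50%.

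Over all clustered cells, every member had a higher CPM on the ketogenic diet, and for all but Ly6i the ratio was smaller once both libraries were given the same cluster composition. The level of Ly6a was 163 CPM on chow and 319 CPM on the ketogenic diet, that of Ly6c2 482 and 841 CPM, and that of Ly6e 744 and 1257 CPM. Ly6c1 had 22.9 and 38.7 CPM, Ly6d 59.7 and 104.7 CPM and Ly6i 2.48 and 5.22 CPM. The log2 ratios of ketogenic over chow were between 0.76 and 1.06, against a median of 0.13 over 11380 genes. With each cluster given the same weight in both libraries, the log2 ratio was 0.28 for Ly6a, 0.094 for Ly6c1, 0.18 for Ly6c2, 0.048 for Ly6d, 0.38 for Ly6e and 2.96 for Ly6i, and the median of all genes was 0.048. Without clusters 3 and 8, the log2 ratio of Ly6i was -0.51. In that weighted comparison 1 member, Ly6i, was at least 2-fold higher, as were 0.756% of all genes. Without the weights only Ly6i passed 2-fold, as did 5.76% of all genes.

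Within clusters, 48 of the 78 combinations of member and cluster had at least 50 UMIs over both libraries and were compared as log2 ratios of CPM, with 0.5 added to each count. At least 2-fold higher on the ketogenic diet were 9 of the 48, and 2 were at least 2-fold lower. Among all pairs of gene and cluster with at least 50 UMIs, 3.32% were at least 2-fold higher and 2.32% at least 2-fold lower, and by cluster the share higher ran from 1.34% in cluster 1 to 17.2% in cluster 9. The counting interval lay above a ratio of 1 in 30 of the 48 and below it in 5, against 16% and 10.4% of all pairs. An interval leaves out 1 more easily where a gene has more UMIs. The shares of intervals here and below cover all genes with at least 50 UMIs and were not matched to the members in UMIs. The 9 at least 2-fold higher were Ly6a, Ly6c2 and Ly6i in cluster 3, Ly6a and Ly6c2 in cluster 5, Ly6c2 in clusters 7, 10 and 11 and Ly6d in cluster 10. Just outside the limits were Ly6e in cluster 3, at 1.99-fold, and 3 pairs under 50 UMIs. These were Ly6c1 in cluster 5 (2.63-fold higher on 10 and 33 UMIs), Ly6c2 in cluster 12 (2.91-fold higher on 12 and 31 UMIs) and Ly6c1 in cluster 9 (log2 ratio -1.04 on 14 and 17 UMIs). Without possible doublets, cells with at least 3 UMIs each of the lymphoid and myeloid marker lists, 12 pairs were at least 2-fold higher. Ly6c1 and Ly6e in cluster 3 and Ly6a and Ly6e in cluster 10 were added, and Ly6c2 in cluster 3 was lost, so clusters 3 and 10 then had equally many.

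**Figure D3:**
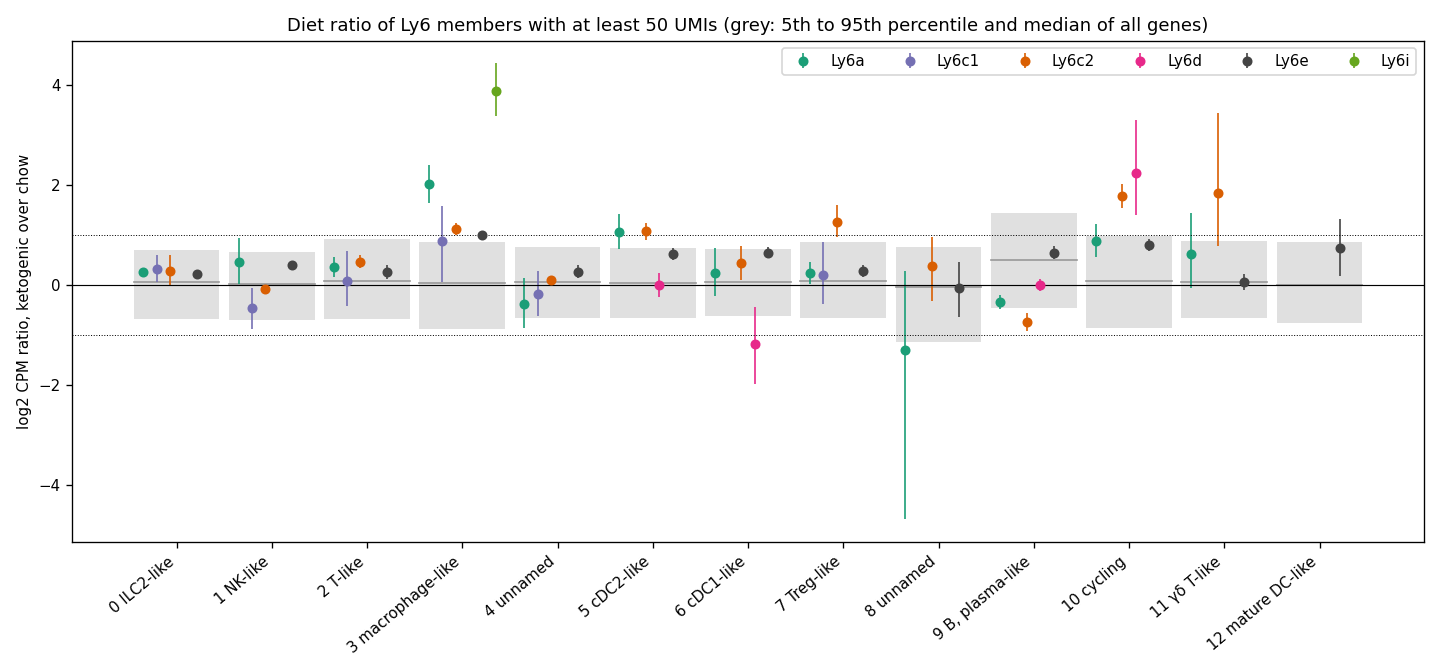
Log2 ratio of CPM, ketogenic over chow (vertical axis), for each Ly6 gene with at least 50 UMIs in a cluster (horizontal axis), with 95% counting intervals. Grey boxes span the 5th to 95th percentile of all genes with at least 50 UMIs in the cluster, the grey line is their median, and dotted lines mark 2-fold. Ly6i and Ly6a in cluster 3 lie at 3.90 and 2.03, above the box, and Ly6e lies above 0 in every cluster but 8.

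With all cells counted, cluster 3 had the most members at least 2-fold higher, 3 of the 5 with at least 50 UMIs, as against 3.27% of all genes there. Ly6i had 44 UMIs (8.66 CPM) on chow and 116 UMIs (129.9 CPM) on the ketogenic diet, a ratio of 14.99 (interval 10.5 to 21.7). Ly6a had 27.8 and 113 CPM, a ratio of 4.07 (3.12 to 5.30). Ly6c2, the monocyte marker, had 366 and 801 CPM, a ratio of 2.19 (2.003 to 2.38). Ly6e had 720 (interval 697 to 744) and 1435 (1358 to 1516) CPM, a ratio of 1.99 (1.87 to 2.12). After thinning, 20.8% of cluster 3 cells on chow and 37.2% on the ketogenic diet had a Ly6c2 UMI, and 1.05% and 7.59% had a Ly6i UMI. The unthinned shares were 50.1% and 68.3% for Ly6c2 and 3.73% and 18.6% for Ly6i, at medians of 5543 and 5589 UMIs per cell. For comparison, a Ly6i UMI was found, without thinning, in 1 of 854 ILC2-like cells on chow (0.117%) and in 0 of 1310 on the ketogenic diet, which allows a share of cells with a UMI of up to 0.229% (3 cells), at medians of 2610.5 and 3133 UMIs per cell.

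Single cells carried much of the ketogenic signal in cluster 3, which had 145 cells there. One cell held 37 of the 116 Ly6i UMIs and 26 of the 101 Ly6a UMIs, together with 289 UMIs of Lyz2, a macrophage gene. A further cell held 15 Ly6a UMIs and 13 of the 21 Ly6c1 UMIs, had 0 UMIs of Lyz2 and carried 19 UMIs of the 10 endothelial markers, among them 5 each of Cdh5 and Esam. Without both cells, the log2 ratio was 3.37 for Ly6i, 1.30 for Ly6a, 1.09 for Ly6c2 and 0.97 for Ly6e. For Ly6c1 it was 0.88 with all cells and -0.44 without both, so its direction rested on 1 cell. Over all clusters, the endothelial markers summed to between 4.92 and 57.9 CPM on chow, with 1 of 10 at 0, and to between 6.32 and 40.9 CPM on the ketogenic diet, with none at 0. Possible doublets were 98 of 859 and 27 of 145 cells of cluster 3. Without them, the log2 ratios were 3.15 for Ly6i, 1.41 for Ly6a, 0.80 for Ly6c2, 1.002 for Ly6e and 1.23 for Ly6c1, so Ly6c2 was then under 2-fold, as it was in the mean over cells (0.92). With 10% free RNA subtracted, the log2 ratio of Ly6a was 2.82. Beside these changes, 8 neutrophil markers summed to 310 CPM in cluster 3 on chow and 80.6 CPM on the ketogenic diet, but the 4 with at least 50 UMIs went both ways. S100a8 (156 and 10.1 CPM) and S100a9 (101 and 1.12 CPM) were at least 2-fold lower, Csf3r had 37.02 and 45.9 CPM, and Mmp8 (8.66 and 22.4 CPM) was at least 2-fold higher, and their part in the result was not tested.

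Both kinds of cell in cluster 3 had higher members on the ketogenic diet, but their proportions differed between the libraries. Cells with at least 5 C1q UMIs, as in resident macrophages, numbered 275 on chow and 27 on the ketogenic diet, and the other cells 584 and 118. In the C1q-high cells Ly6c2 had 166 and 728 CPM, a log2 ratio of 2.13 (ratio interval 3.56 to 5.37), and in the C1q-low cells 474 and 821 CPM, a log2 ratio of 0.79 (1.57 to 1.91). Ly6e had 478 and 1245 CPM in the C1q-high cells and 851 and 1488 CPM in the C1q-low cells. Ly6a had 16.3 and 129 CPM in the C1q-high cells, where 1 of the 27 ketogenic cells held 44.0% of the UMIs, and 34.0 and 109 CPM in the C1q-low cells. On chow, Ly6c2, Ly6a and Ly6e were higher in C1q-low than in C1q-high cells, and on the ketogenic diet the intervals of the 2 kinds of cell overlapped for all 3 genes. Whether the change in ratio between the kinds of cell exceeds the spread between mice was not tested.

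**Figure D4:**
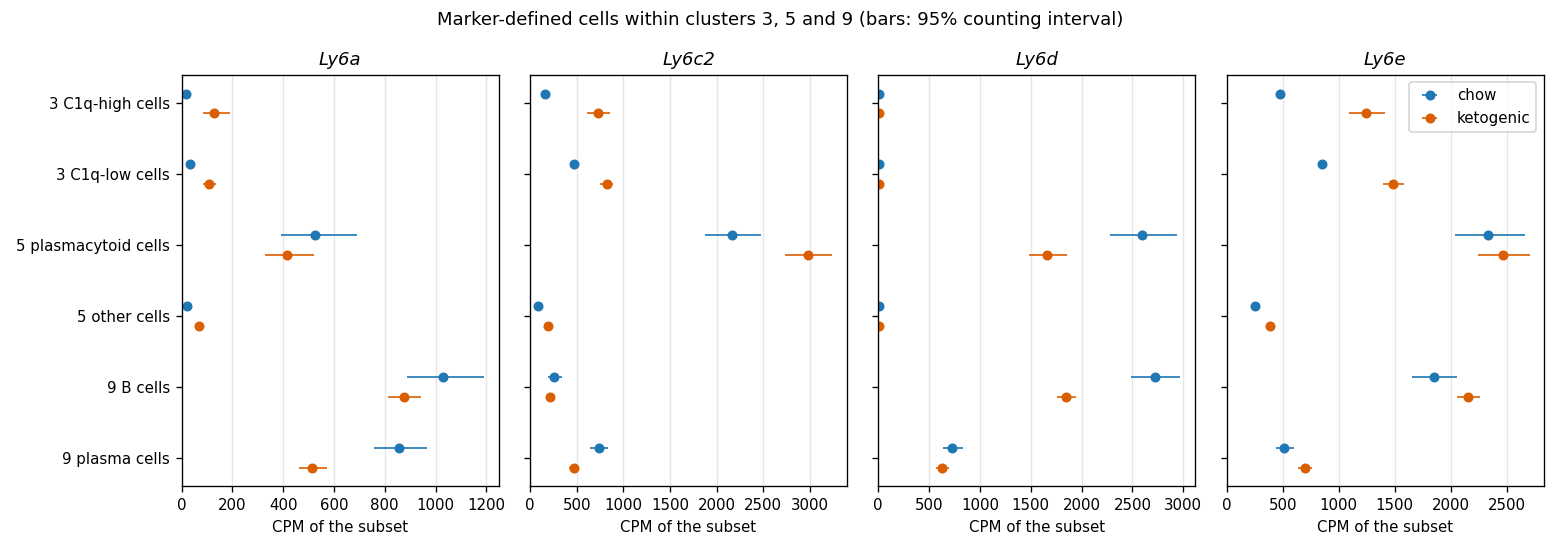
Levels (CPM, horizontal axis) of Ly6a, Ly6c2, Ly6d and Ly6e in cells of clusters 3, 5 and 9 chosen by marker UMIs (rows), in the chow (blue) and ketogenic (orange) library, with 95% counting intervals. Ly6c2 in cluster 3 C1q-high cells goes from 166 to 728 CPM, and Ly6d is high in B, plasma and plasmacytoid cells.

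Interferon-stimulated genes moved in cluster 3 alongside the members. The list used here holds 60 such genes and none of the members, and it was chosen with earlier results of these data known. Of its 41 genes with at least 50 UMIs in cluster 3, 24 were at least 2-fold higher on the ketogenic diet and none was 2-fold lower, against 3.27% and 3.76% of all genes there, with a median log2 ratio of 1.18 against 0.04 for all 6840 genes. Ms4a4c had 154 and 555 CPM, Ifi204, a sensor of DNA, 111 and 254 CPM, Isg15, a ubiquitin-like modifier, 71.5 and 204 CPM and Ifi35 60.1 and 122 CPM. Of 15 genes for interferon receptors and signalling, 2 were at least 2-fold higher, with a median of 0.41. Without the possible doublets 22 of the 41 genes passed 2-fold, and without both cells named above 24 did.

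Within cluster 3, the summed list was also higher in cells with a UMI of Ly6i, Ly6a, Ly6c2 or Ly6e than in cells without one. Cells with a Ly6i UMI (32 on chow and 27 on the ketogenic diet) had 3526 and 6807 CPM of the summed list, and cells without one had 2722 and 4690 CPM. Cells with a Ly6a UMI had 3685 and 7155 CPM, and those without one 2579 and 4469 CPM. Cells with a Ly6c2 UMI had 3135 and 5947 CPM, and those without one 2320 and 2549 CPM. For Ly6e, which most cells carried, the values were 2935 and 5217 CPM with a UMI and 1487 and 1068 CPM without one, the last from 6 cells. The intervals of cells with and without a UMI did not overlap in either library for any of these 4 genes. Ly6c1 differed between the libraries, with 4999 CPM in cells with a UMI against 2621 CPM without one on chow, and 3339 CPM (8 cells) against 5221 CPM on the ketogenic diet. Cells with a Ly6d UMI had 2495 and 3114 CPM, and those without one 2759 and 5209 CPM. Cells with a UMI of Ly6c2 were deeper, with medians of 5710.5 UMIs on chow and 6233 on the ketogenic diet against 5368 and 4666. Cells with a UMI of Ly6a were also deeper (6051 and 6499 against 5427.5 and 5462), and those with a UMI of Ly6i were deeper on the ketogenic diet alone (6316 against 5573, and 5013 against 5553 on chow). For Ly6e the medians were 5634 and 5736 UMIs in cells with a UMI against 5112 and 3772 in cells without one. The part of depth in these differences was not tested.

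In cluster 5 Ly6a and Ly6c2 were higher without such a shift of the list. Ly6a had 44.4 CPM on chow and 93.0 CPM on the ketogenic diet, a ratio of 2.09 (1.65 to 2.67), and Ly6c2 had 179 and 379 CPM, a ratio of 2.12 (1.88 to 2.38). These were 2 of the 4 members with at least 50 UMIs, and 2.16% of all genes were 2-fold higher there. Ly6e had a log2 ratio of 0.62 and Ly6d of 0.0096. None of 30 interferon-stimulated genes passed 2-fold in either direction, and their median log2 ratio was 0.02 against 0.03 for all genes. Of the list, 6 of 33 genes were at least 2-fold higher in cluster 2 (median 0.28, against 3.96% of all genes), 3 of 17 in cluster 10 (median 0.33, against 4.92%) and 6 of 16 in cluster 9 (median 0.68, against 17.2%). Apart from the plasmacytoid cells, the other cells of cluster 5 had 22.8 and 70.1 CPM of Ly6a, a log2 ratio of 1.61 (ratio interval 2.23 to 4.33), and 89.6 and 194.5 CPM of Ly6c2, a log2 ratio of 1.12 (1.83 to 2.58). The plasmacytoid cells, 21 and 30 in number, had 2164 and 2980 CPM of Ly6c2 and held 52.2% and 52.1% of its UMIs in the cluster. Their Ly6d was lower on the ketogenic diet, with 1662 against 2594 CPM, though 1 cell held 33.2% of those UMIs on chow and 1 held 35.9% on the ketogenic diet. In cluster 5 as a whole, adipose stromal and progenitor markers summed to 242 and 363 CPM, and endothelial markers to 21.8 and 20.3 CPM. The 3 stromal markers with at least 50 UMIs had a median log2 ratio of 0.73, and none passed 2-fold. Their part was not tested.

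**Figure D5:**
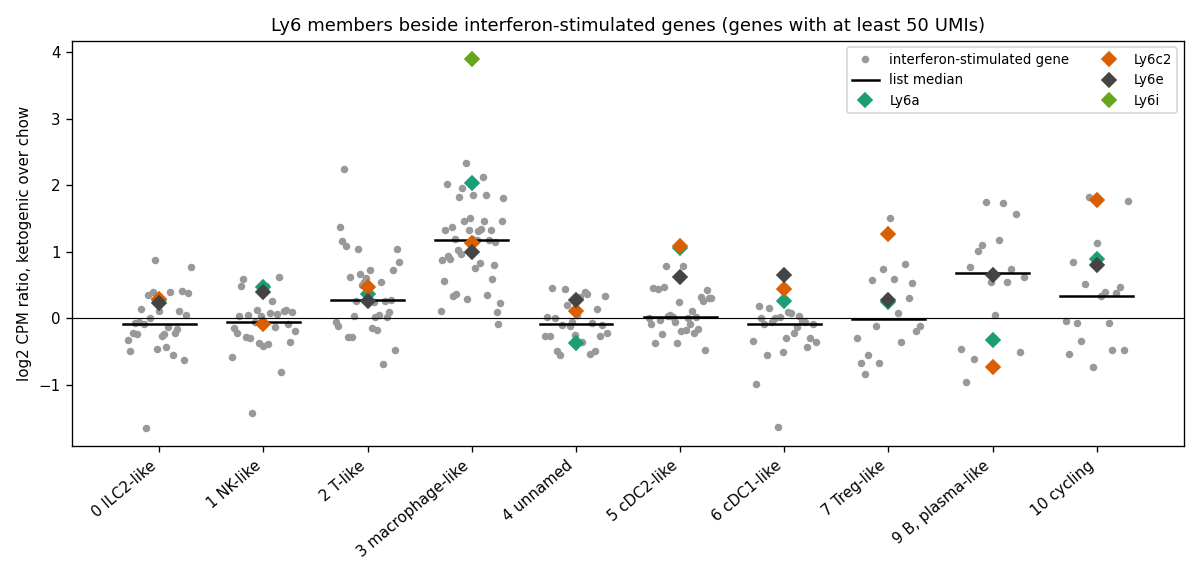
Log2 ratio of CPM, ketogenic over chow (vertical axis), for interferon-stimulated genes with at least 50 UMIs (grey points, one per gene, spread sideways), their median (black line) and Ly6a, Ly6c2, Ly6e and Ly6i (diamonds) in 10 clusters. In cluster 3 the list median is 1.18 and the members lie from 0.99 to 3.90. In cluster 5 the list median is 0.02 and Ly6a and Ly6c2 lie at 1.06 and 1.08.

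Ly6e, the broadly expressed member, was higher on the ketogenic diet in 12 of 13 clusters, in each by less than 2-fold when all cells were counted. Its interval lay above a ratio of 1 in 11 of them, a mark passed by 16% of all pairs of gene and cluster, and by 41.5% of those in cluster 9. Ly6e had 15888 UMIs on chow and 32517 on the ketogenic diet, and those pairs were not matched to it in UMIs. The log2 ratio was 0.99 in cluster 3, 0.81 in cluster 10 (cycling), 0.74 in cluster 12, 0.65 in clusters 6 (type 1 conventional dendritic cell, cDC1-like) and 9, 0.62 in cluster 5 and 0.40 in cluster 1. It lay between 0.23 and 0.28 in clusters 0, 2, 4 and 7. In cluster 12 a single cell held 35.6% of the 45 chow UMIs and another 40.3% of the 67 ketogenic UMIs. The exceptions were cluster 8, at -0.048, and cluster 11, where the level was highest, at 0.062, with intervals that held 1 in both. Without possible doublets, Ly6e was past 2-fold in clusters 3 (log2 ratio 1.002) and 10 (1.15) and at -0.046 in cluster 9. In cDC1-like cells the values were 358 and 563 CPM, while 24 interferon-stimulated genes had a median log2 ratio of -0.09 there and none was 2-fold higher, as were 1.35% of all genes.

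Ly6c2 was also at least 2-fold higher in clusters 7, 10 and 11, in each as the only member or beside Ly6d. In cluster 7 it had 185 CPM on chow and 447 CPM on the ketogenic diet, a ratio of 2.42 (1.94 to 3.04), while 3.46% of genes were 2-fold higher. Cells without a UMI of Foxp3, the regulatory T cell factor, had 195 and 568 CPM (75 and 573 UMIs, ratio interval 2.29 to 3.76). Cells with a Foxp3 UMI, 48 and 100 in number, had 151 and 146 CPM (17 and 59 UMIs, ratio interval 0.56 to 1.77), and 1 chow cell held 70.6% of the UMIs. Without the leading cell of each library, the Foxp3 cells had 45.5 CPM on chow (interval 14.8 to 106) and 112 CPM on the ketogenic diet (81.3 to 150), and the intervals overlapped. A Ly6c2 UMI was found in 6 of 48 and 26 of 100 cells with a Foxp3 UMI and in 24 of 112 and 86 of 228 cells without one. The share of cluster 7 cells with a Ly6c2 UMI was 9.38% and 18.0% after thinning and 18.8% and 34.1% before, with medians of 2489 and 3527.5 UMIs per cell.

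In cluster 10 Ly6c2 had 128 CPM on chow and 440 CPM on the ketogenic diet, a ratio of 3.44 (2.92 to 4.09), while 4.92% of genes were 2-fold higher there. Without possible doublets the log2 ratio of Ly6c2 was 2.39 instead of 1.78, and Ly6a (1.83 instead of 0.88) passed 2-fold. Cells with at least 2 UMIs of Cd3e, Cd3d, Cd3g and Nkg7 were 63 of 142 on chow and 113 of 154 on the ketogenic diet. Within those T and NK cells Ly6c2 had 270 and 607 CPM, a log2 ratio of 1.16 (ratio interval 1.88 to 2.70), and in the other cycling cells 29.4 and 54.0 CPM. In cluster 11 it had 31.6 and 123 CPM on 6 and 84 UMIs, a ratio of 3.90 (1.72 to 10.9), and 3.22% of genes were 2-fold higher. With 5 added to each count, its log2 ratio there was 1.17 instead of 1.86, and with 10% free RNA subtracted under 3 counts were left on chow and no ratio was taken. In cells with a UMI of Trdc, the constant chain of the γδ receptor, the counts were 2 and 43 UMIs, of which 1 ketogenic cell held 34.9%. In the other cells they were 4 and 41 UMIs (78.8 and 128 CPM, with overlapping intervals). The splits of clusters 7, 10 and 11 were chosen after these values were seen.

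Ly6d in cluster 10 had 12 UMIs (8.71 CPM) on chow and 68 UMIs (42.7 CPM) on the ketogenic diet, a log2 ratio of 2.24. One ketogenic cell held 34 of the 68 UMIs and also carried 29 UMIs of Cd79a, a subunit of the B cell receptor complex, and without the leading cell the log2 ratio was 1.37. A further cell held 25 UMIs, so that both together held 59 of the 68. Without both, 9 UMIs (5.74 CPM) were left on the ketogenic diet and the log2 ratio was -0.58, so the difference and its direction rested on these 2 cells. With 10% free RNA subtracted and both cells kept it was 3.42. In cluster 6 Ly6d was lower on the ketogenic diet, at 7.18 against 16.4 CPM (25 against 40 UMIs, log2 ratio -1.18), as were 1.21% of genes by at least 2-fold. There 1 chow cell held 15 of the 40 UMIs with 12 UMIs of Cd79a, and without the leading cell the log2 ratio was -0.58. With 10% free RNA subtracted, a Ly6d sum of cluster 6 fell under 3 counts and no ratio was taken. Without possible doublets Ly6d was higher on the ketogenic diet in both clusters, with log2 ratios of 0.33 in cluster 6 and 2.49 in cluster 10. The other combination past 2-fold downward was Ly6a in cluster 8, with 71 UMIs on chow and 2 on the ketogenic diet, a ratio of 0.33 with an interval of 0.04 to 1.22, in a cluster where 6.99% of genes were at least 2-fold lower. With 5 added to each count its log2 ratio went from -1.31 to 0.090, so that the 2-fold difference was lost and the direction turned. This pair also had no ratio once free RNA was subtracted.

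In cluster 9 Ly6a and Ly6c2 were lower on the ketogenic diet when all cells were counted. Ly6a had 874 CPM on chow and 694 CPM on the ketogenic diet (log2 ratio -0.33) and Ly6c2 622 and 374 CPM (-0.73), each with an interval below 1, as had 3.87% of genes. Ly6d was at the same level in both, with a log2 ratio of -0.0014. The median log2 ratio of all genes in this cluster was 0.50, with these 3 members below it and Ly6e, at 0.65, above it. The B cells proper had at least 2 UMIs of B cell genes such as Ms4a1 and under 20 of Jchain. They were 47 of 82 cells on chow and 194 of 245 on the ketogenic diet. Plasma cells, with at least 20 UMIs of Jchain and none of Ms4a1, were 20 and 37. The remaining cells of the cluster fell in neither group. Ly6d was lower on the ketogenic diet within the B cells, at 1851 against 2718 CPM (log2 ratio -0.56, ratio interval 0.61 to 0.76), and had 629 against 730 CPM in the plasma cells. Ly6a had 875 against 1030 CPM in the B cells and 514 against 858 CPM in the plasma cells. For Ly6c2 in plasma cells, 467 against 737 CPM, 1 cell held 38.5% of the UMIs on chow and 1 held 37.7% on the ketogenic diet. Possible doublets made up 42 of 82 cells of cluster 9 on chow and 15 of 245 on the ketogenic diet, and without them the log2 ratios were 0.013 for Ly6a, 0.95 for Ly6c2, -0.40 for Ly6d and -0.046 for Ly6e.

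In the ILC2-like cells of cluster 0 all 4 members with at least 50 UMIs were higher on the ketogenic diet, by 1.17-fold to 1.25-fold. Ly6a had a log2 ratio of 0.27, Ly6c1 of 0.33, Ly6c2 of 0.29 and Ly6e of 0.23, against a median of 0.07 for all genes. The interval lay above a ratio of 1 for Ly6a, Ly6c1 and Ly6e, as for 18.7% of genes, and held 1 for Ly6c2. In the NK-like cells of cluster 1 Ly6c1 was at 48.4 and 35.05 CPM (log2 ratio -0.47) and Ly6c2 at -0.09, both with intervals below 1, as had 12.7% of genes, whereas Ly6e was at 0.40. Ly6a was at 0.46 there on 57 and 158 UMIs, and at -0.38 with 10% free RNA subtracted. In the T-like cells of cluster 2 Ly6c2 had 848 and 1173 CPM (log2 ratio 0.47), and its ratio was smaller within the CD8 cells (0.24) and within the CD4 cells (0.16, ratio interval 0.86 to 1.496). Ly6a went the other way in these 2 groups, with a log2 ratio of 0.36 in the whole cluster, 0.78 in the CD8 cells and 0.55 in the CD4 cells, and Ly6e had 0.26, 0.41 and 0.41. The CD8 and CD4 cells held 227 and 63 of the 527 Ly6c2 UMIs of the cluster on chow. On the ketogenic diet they held 1437 and 394 of 3269. The cells of cluster 2 in neither group were not compared, so whether ratios change once the kind of T cell is held fixed was not tested.

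Apart from Plaur, the wider Ly6 and urokinase receptor family had few UMIs. Of 41 further family genes listed, 31 were in the matrices, 12 had 0 UMIs and 4 had at least 50 UMIs over all clustered cells. Of 12 pairs of such a gene and a cluster with at least 50 UMIs, 1 was at least 2-fold higher on the ketogenic diet, in cluster 9. Another 1 was at least 2-fold lower, in cluster 6, against 3.32% higher and 2.32% lower among all pairs. Plaur, the urokinase receptor, had 3461 UMIs on chow and 1641 on the ketogenic diet, and was highest in cluster 3, at 372 and 364 CPM (log2 ratio -0.03), where the ketogenic library had fewer cells. Ly6g5b had 77 and 246 UMIs, of which 60.99% were in cluster 11, where it is a leading gene (226 CPM over both libraries). Ly6k had 76 and 104 UMIs, and Cd177, a neutrophil surface protein, 102 and 30, though its level in cluster 3 was 18.5 CPM on chow and 30.2 CPM on the ketogenic diet (ratio interval 1.02 to 2.53). Ly6g, the neutrophil marker, had 2 and 0 UMIs, and 2 of 8 neutrophil markers (Camp and Ngp) were at 0 in both libraries. The other 6 brought the list to 2142 UMIs on chow and 240 on the ketogenic diet, among them S100a8 (1074 and 92) and S100a9 (750 and 54). Of genes that build and attach the GPI anchor, 26 were in the matrices, and 133 pairs of such a gene and a cluster had at least 50 UMIs. At least 2-fold higher were 2 of the 133, against 3.32% of all pairs: Gpaa1 in cluster 2 and Dpm2 in cluster 9, and none was 2-fold lower. In cluster 3 none of 15 passed 2-fold, against 3.27% of all genes higher, and their median log2 ratio was -0.01.

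Genes with the most similar pattern to each member were ranked by Pearson's r of log2(CPM + 10) over the 26 sums of cluster and library, among 6689 genes with at least 500 UMIs. The sums share their libraries and the clusters were made from the same cells, so r is a description. For Ly6d the 5 were Iglc3 (r = 0.975), Mzb1, Cd79a, Ighm and Ebf1. For Ly6c2 they included Frat2 (r = 0.889), Itm2a, Ggct and Fasl. Ly6c1 went instead with Arid5b (r = 0.896), Cd27, Pitpnc1, B4galt1 and Prkcq. For Ly6a they were Ralgps2 (r = 0.831), Nek7, Cd69, Isg20 and Epcam, and for Ly6e Serinc3 (r = 0.918), Icam2, Ddrgk1, Svbp and Ddx41. For Ly6i they were Msr1 (r = 0.891), a scavenger receptor, Fcgr1, Hp, Mgst1 and Ifi204. Among the members themselves, Ly6a and Ly6e had the highest r (0.68), followed by Ly6c1 and Ly6e (0.64) and by Ly6c1 and Ly6c2 (0.61).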

How the data were processed

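Polyadenylated RNA of single cells was sequenced with a 10x Genomics protocol, per the labels, in 1 library per diet, grouped by the treatment label. In the deposited matrices the values are UMI counts that the authors had not normalised. The submitters' processing notes name Cell Ranger, Seurat and the build mm10; their roles, the chemistry and the use of strand in counting are not given in the sources used here. The authors' deposited table gives cluster numbers at a resolution of 0.5, with no cell types; 142 cells without a cluster were left out of all comparisons. Of the gene IDs, 28339 (98.8%) matched the annotation, which gave positions only.

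UMIs were summed per cluster and library with Python 3.11.15, numpy 2.4.6 and scipy 1.17.1. Poisson intervals were used for CPM, Clopper-Pearson intervals for shares (with a limit of 3 counts for a share of 0) and exact conditional intervals for ratios. Over all cells, cluster CPM were weighted by the cluster's share of cells averaged over the libraries. Shares of cells were thinned to 1000 UMIs by the hypergeometric expectation. A cluster was named when at least 3 markers of a class were raised 2-fold (after adding 20 CPM) and its 10 leading genes pointed to it; these thresholds followed an earlier look at the data. Named genes are the members, the 5 genes most like each by r, and of each list up to 4 genes past 2-fold with the most UMIs; 1 gene that the rule names is not reported here. Members, lists and tests were chosen with earlier results of these data known. The code was tested on simulated data. Depth limits single genes in single cells, so sums were compared.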

Additional observations from a re-analysis of the deposited data

Results flagged for a closer look

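Ly6d moved in opposite directions in 2 clusters, with a log2 ratio of ketogenic over chow of 2.24 in cluster 10 and -1.18 in cluster 6. The difference between the clusters was not tested, and in both a single cell with Cd79a UMIs held a large part of the sum. Without possible doublets the directions were no longer opposite, with log2 ratios of 2.49 in cluster 10 and 0.33 in cluster 6. Without the 2 ketogenic cells that held 59 of the 68 UMIs in cluster 10, the log2 ratio there was -0.58.

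Cells that the deposited table left without a cluster, 87 on chow and 55 on the ketogenic diet, all had over 5% mitochondrial UMIs and enter no comparison, yet they carried Ly6 UMIs above the limit that a count of 0 allows. Ly6a was at 175 CPM in those chow cells and 490 CPM in those ketogenic cells, Ly6c2 at 693 and 888 CPM, Ly6d at 157 and 746 CPM and Ly6e at 868 and 1891 CPM. Ly6c1 was at 22.5 CPM in the chow cells. Of these cells, 4 on chow (4.598%) and 12 on the ketogenic diet (21.8%) had at least 3 UMIs of B cell markers, and the part of these cells in the levels was not tested.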

How the results depend on the processing

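No paired analysis was possible because each diet has 1 library. Of 334 recomputed ratios of member and cluster, 300 stayed within their counting interval and 23 changed sign. Of those 23, 13 were in 6 pairs under 2-fold whose interval held a ratio of 1, with log2 ratios between -0.048 and 0.39 before and between -0.15 and 0.14 after the change. The other 10 were Ly6a in cluster 8 with 5 added to each count (0.090), Ly6d in cluster 10 without both ketogenic cells leading in it (-0.58, chosen after seeing the data), Ly6a in cluster 1 with 10% free RNA subtracted (-0.38), Ly6c1 in cluster 3 without the leading cell (-0.17) or without both ketogenic cells leading in Ly6a (-0.44, chosen after seeing the data), and, without possible doublets, Ly6c2 (-0.27) and Ly6d (0.33) in cluster 6 and Ly6a (0.013), Ly6c2 (0.95) and Ly6e (-0.046) in cluster 9. The possible doublets were 17.6% of chow and 6.12% of ketogenic cells, so that setting removes unequal parts of the libraries. The 2 pairs at least 2-fold lower became 1 without the leading cell, without possible doublets and with 5 added to each count, 1 other pair (Ly6a in cluster 4, -1.33) with free RNA subtracted, and 0 with a minimum of 100 UMIs, set after seeing the data. The 9 pairs at least 2-fold higher became 12 without possible doublets, 10 with 5 added, 7 with a minimum of 100 UMIs and 11 with one of 20, also set after seeing the data. With free RNA subtracted they were again 9, with Ly6e in cluster 3 (1.02) added and Ly6c2 in cluster 11 lost. Subtracting free RNA left 8 of 48 pairs with under 3 counts and no value, among them Ly6c2 in cluster 0 and both pairs at least 2-fold lower. Over all cells, omitting the cluster weights gave log2 ratios of 0.97 for Ly6a, 0.76 for Ly6c1, 0.80 for Ly6c2, 0.81 for Ly6d, 0.76 for Ly6e and 1.06 for Ly6i. Subtracting free RNA gave 0.14 for Ly6c2, -0.024 for Ly6d and 0.34 for Ly6e, and leaving out clusters 3 and 8 gave 0.11 for Ly6c2, 0.31 for Ly6e and -0.51 for Ly6i. The cause of these shifts was not tested.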
